A study of Mus musculus with 8 samples.

Results

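Aquaporins are membrane channels that let water through, and their subgroup of aquaglyceroporins also lets glycerol and other small neutral solutes through. In the testis they are known from germ cells, which lose much of their cytoplasmic volume as spermatids elongate, from the supporting Sertoli cells and from the ducts that drain the testis. Here 9 aquaporin genes, of 54532 genes in the deposited table, were described in spermatocytes of mice with and without mitofusin 2 (MFN2), a protein of the outer mitochondrial membrane that mediates mitochondrial fusion. The 9 genes were selected on measured values: Aqp2 because it was higher in MFN2 cKO in each pair of libraries, Aqp7 because it was lower in most pairs, and Aqp1, Aqp3, Aqp4, Aqp5, Aqp8, Aqp9 and Aqp11 to complete the family. The difference between MFN2 cKO and MFN2 WT is therefore given as a description with no test, and tests were run only on stage and age, which the choice did not use.

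The 8 libraries came from C57BL/6J mice, and each combination of stage, genotype and age had 1 library. The stages were pachytene (P) and leptotene or zygotene (L/Z) spermatocytes, which were separated by their sedimentation through a BSA gradient. The labels give Mfn2 loxp/loxp for every library, without Cre in MFN2 WT and with Stra8-Cre in MFN2 cKO. The methods of the study also allow controls with a single floxed allele, so the WT genotype of these libraries rests on the labels. Stra8-Cre is active in male germ cells from the early spermatogonia onwards, so somatic cells of the testis keep the gene. The ages were postnatal day (PD) 24, in the first wave of spermatogenesis, and PD 52, when spermatogenesis is continuous. Nothing in the labels says whether a library held 1 animal or a pool.

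The libraries held between 14340665 and 20379950 reads on genes. Mfn2 itself was at 51.3% and 80.5% of its WT level in the P cKO libraries at PD 24 and PD 52, and at 41.8% and 49.1% in the L/Z cKO libraries, counted over the whole gene and not over the deleted part alone. The markers did not order the libraries cleanly by their stage labels. At PD 24 the summed FPKM of 8 L/Z spermatocyte markers was 234 and 215 in the P libraries of WT and cKO against 140 and 182 in the L/Z libraries. At PD 52 it was 193 and 176 against 119 and 75.2. The sum of 8 P markers was 3109 and 2520 in P against 2208 and 2384 in L/Z at PD 24. At PD 52 it was 3872 and 3166 against 3147 and 3680. Of the 8 L/Z markers 5 were higher in the libraries labelled P and 0 lower, while of the 8 P markers 1 was higher (Piwil1) and 1 lower (Pgk2). The L/Z markers Dmc1 and Prdm9 were higher in L/Z in every pair, but did not pass the stage test given below. Stage below is thus the label of a library, and markers of other cells are given beside the aquaporins with which they moved. In bulk RNA fewer cells of a type and less RNA per cell cannot be told apart.

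The promoters of the aquaporins that moved together, Aqp7 and Aqp11, and of Aqp2 are shown because they differ plainly in base composition. Aqp2 was the one that was at least 2-fold higher in the cKO library of every pair. RefSeq's table for GRCm38.p6 held a promoter for 8 of the 9 genes. The 250 bases before the start site of each gene lie at chr4:41048137-41048386 on the reverse strand for Aqp7 (the upstream one of the pair listed for it), at chr7:97738248-97738497 on the reverse strand for Aqp11, and at chr15:99578806-99579055 on the forward strand for Aqp2. Capitals mark a nuclear receptor half-site (AGGTCA, or TGACCT on the other strand) or a MYB core (CNGTTA, or TAACNG on the other strand).

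Aqp7: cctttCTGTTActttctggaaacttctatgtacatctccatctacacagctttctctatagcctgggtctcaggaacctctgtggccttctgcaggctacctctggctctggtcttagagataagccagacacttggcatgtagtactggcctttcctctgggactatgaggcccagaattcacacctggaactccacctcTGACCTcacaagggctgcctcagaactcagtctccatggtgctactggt

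Aqp11: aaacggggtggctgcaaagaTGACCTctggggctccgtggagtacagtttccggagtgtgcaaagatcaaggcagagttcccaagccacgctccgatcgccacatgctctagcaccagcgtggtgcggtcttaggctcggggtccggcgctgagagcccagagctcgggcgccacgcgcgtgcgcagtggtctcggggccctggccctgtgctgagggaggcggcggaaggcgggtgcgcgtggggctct

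Aqp2: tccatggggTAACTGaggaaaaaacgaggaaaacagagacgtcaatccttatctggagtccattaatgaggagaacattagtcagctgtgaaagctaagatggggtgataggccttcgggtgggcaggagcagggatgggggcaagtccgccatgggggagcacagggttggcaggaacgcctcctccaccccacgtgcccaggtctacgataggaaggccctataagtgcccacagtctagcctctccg

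The Aqp7 stretch held 0 CpG and 50.8% G or C, the Aqp11 stretch 23 CpG and 67.2%, and the Aqp2 stretch 8 CpG and 55.6%, against a median of 6 CpG and 52.4% over 32851 promoter stretches of the same length. A half-site began 49 bases before the start of Aqp7 (position -49) and at position -230 of Aqp11, and 14.0% of all stretches hold one. MYB cores stood at position -245 of Aqp7, -241 of Aqp2 and -196 of Aqp8, and 19.8% of all stretches hold one. The cAMP response element TGACGTCA, which 1.55% of stretches hold, and the NR5A1 element CAAGGTCA, which 1.33% hold, were found in none of the promoters of the 8 genes. The TATA box TATAAA was found, on either strand, at position -29 of Aqp3 alone among them, and 12.4% of stretches hold it. These are matches of letters and do not show that a factor binds there.

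Levels are in FPKM, fragment counts divided by gene length and by a scale factor of each library, so genes can be compared per length. This scale factor did not follow the total of reads on genes. A further median-of-ratios scaling, by the typical gene level of each library, gave the same factor, 1.02, in all 8 libraries. Intervals are 95% exact counting intervals on the reads behind a value and cover counting error only. Aqp11, Aqp9 and Aqp7 made up most of the family's RNA: together they held between 80.3% and 98.5% of the summed FPKM of the 9 genes in each library. Aqp8 and Aqp2 were at a lower level with means of 4.85 and 4.55 FPKM, and the means of Aqp3 and Aqp5 were 0.541 and 0.521 FPKM. Aqp1 and Aqp4 were without signal above 1 FPKM in any library. Of the 9 genes 7 passed the filter of FPKM above 1 in at least 1 library, Aqp3 and Aqp5 in 1 library each.

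**Figure D1:**
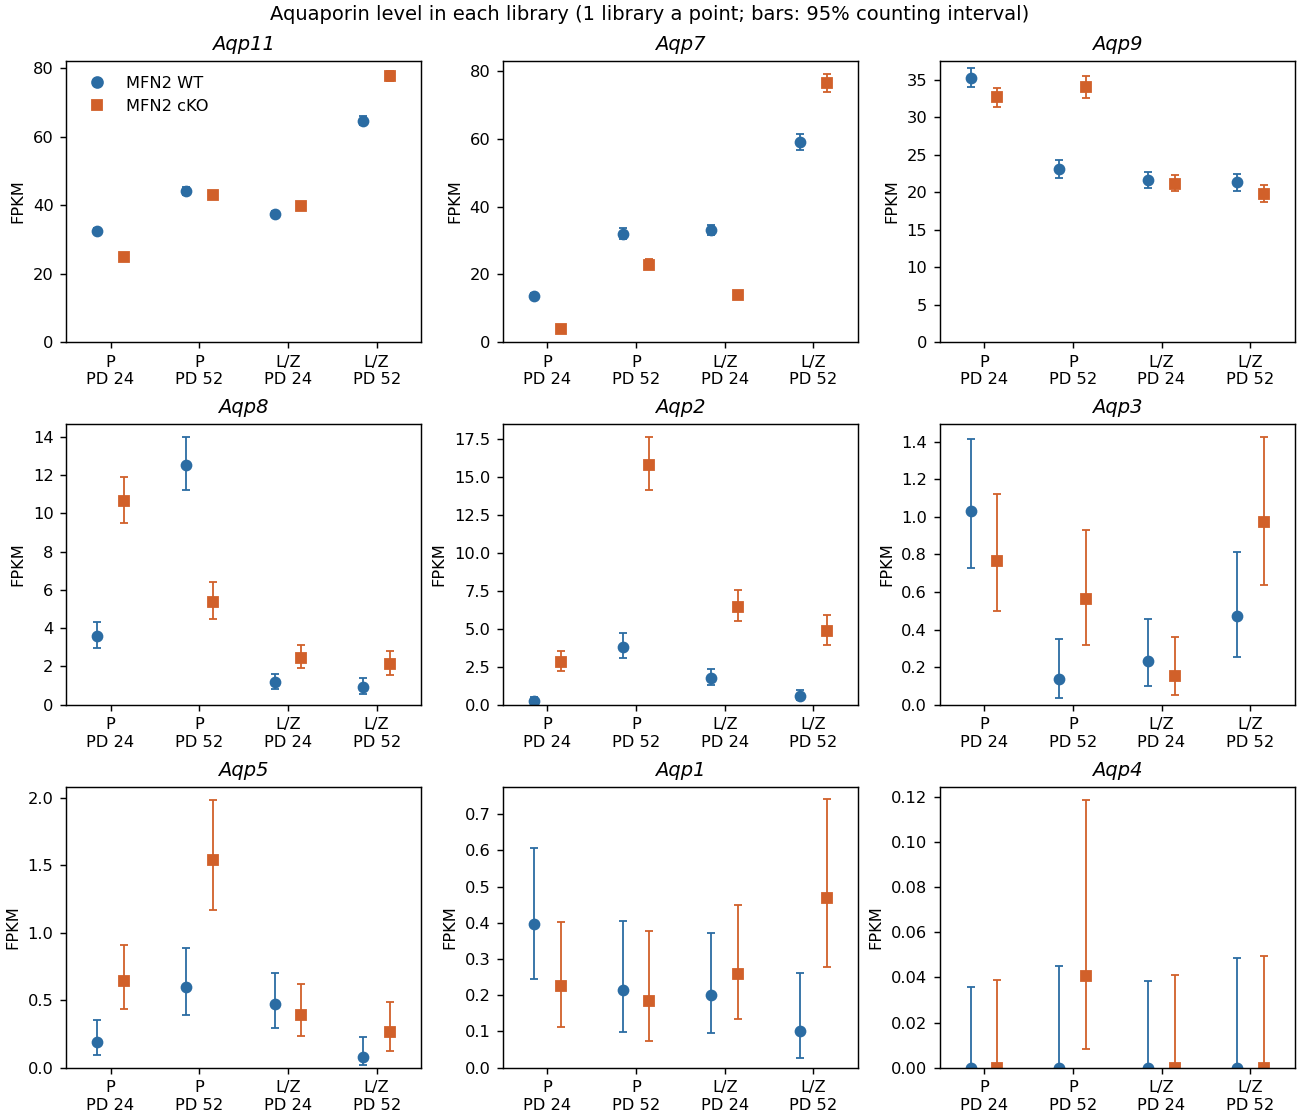
FPKM (linear axis from 0, its own scale in each panel) of the 9 aquaporins in the 8 libraries, grouped by stage and age, with MFN2 WT as circles and MFN2 cKO as squares. Bars are 95% counting intervals. The squares lie above the circles in all 4 groups for Aqp2, and in 1 of 4 for Aqp7.

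Aqp11 encodes an intracellular aquaporin of the endoplasmic reticulum and had the highest mean FPKM of the family, at 45.5. At PD 24 it was at 32.4 FPKM in P WT, 24.9 in P cKO, 37.4 in L/Z WT and 39.8 in L/Z cKO. At PD 52 it was at 44.1 in P WT, 42.9 in P cKO, 64.6 in L/Z WT and 77.8 in L/Z cKO. All 4 libraries of PD 52 lay above all 4 of PD 24, and P and L/Z overlapped. The P WT and P cKO libraries at PD 52, neighbours in the order of levels, did not differ beyond counting error (ratio 1.03, interval 0.993 to 1.07). The gene lies on chromosome 7 (97724006 to 97738289, reverse strand).

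Aqp7 is an aquaglyceroporin of fat cells that is also known from spermatids and sperm. It lies on the reverse strand of chromosome 4 (41033074 to 41048139). At PD 24 its level was 13.6 FPKM in P WT, 3.93 in P cKO, 33.1 in L/Z WT and 13.9 in L/Z cKO. At PD 52 it was 31.9 in P WT, 22.9 in P cKO, 59.1 in L/Z WT and 76.4 in L/Z cKO. The lowest library was thus P cKO at PD 24 with 207 reads and the highest L/Z cKO at PD 52 with 3160, a range of 19.4-fold, and the genotypes overlapped. Neighbours that did not differ beyond counting error were L/Z WT at PD 24 and P WT at PD 52 (ratio 1.04, interval 0.966 to 1.11), and L/Z cKO and P WT at PD 24 (ratio 1.02, interval 0.918 to 1.13). Of the 50-base windows of its transcript 4.60% are shared with transcripts of other genes, so a small part of its reads is uncertain in origin.

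Aqp9 is the aquaglyceroporin best known from liver, where it takes up glycerol. It was at 35.3 FPKM in P WT, 32.7 in P cKO, 21.6 in L/Z WT and 21.2 in L/Z cKO at PD 24. At PD 52 the same libraries were at 23.1, 34.0, 21.3 and 19.8 FPKM. It varied least of the 5 members with a mean above 1 FPKM (1.78-fold between lowest and highest), and the lowest P library lay above the highest L/Z library. These neighbours, P WT at PD 52 and L/Z WT at PD 24, did not differ beyond counting error (ratio 1.07, interval 0.996 to 1.15), nor did the 4 L/Z libraries from one to the next. An antisense gene, Gm32511, at 1.89 to 4.07 FPKM, and the pseudogene Gm47268, at up to 0.494 FPKM, overlap it on chromosome 9 (71110659 to 71168682). The library kit named in the labels does not mark strand, so part of its reads may belong to Gm32511.

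Aqp8 is a water channel that also conducts hydrogen peroxide and ammonia, and it lies on the forward strand of chromosome 7 (123462291 to 123468004). It was at 3.61 FPKM in P WT, 10.6 in P cKO, 1.17 in L/Z WT and 2.46 in L/Z cKO at PD 24. At PD 52 it was at 12.5 FPKM in P WT, 5.36 in P cKO, 0.930 in L/Z WT and 2.12 in L/Z cKO, with 22 reads in the lowest library and 318 in the highest. Every P library lay above every L/Z library. The genotypes overlapped, and in P their order turned between the ages.

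Aqp2 is the water channel of the kidney's collecting duct that vasopressin moves to the cell surface. It lies on the forward strand of chromosome 15 (99579055 to 99584547), directly before Aqp5 (gap of 6234 bases) and Aqp6 (a further 6570 bases). At PD 24 it was at 0.245 FPKM in P WT on 7 reads, 2.84 in P cKO, 1.75 in L/Z WT and 6.48 in L/Z cKO. At PD 52 it was at 3.82 FPKM in P WT, 15.8 in P cKO on 326 reads, 0.565 in L/Z WT on 12 reads and 4.87 in L/Z cKO. The cKO library of a pair was the higher one throughout, but across pairs the genotypes overlapped: P WT at PD 52 lay above P cKO at PD 24, a difference within counting error (ratio 1.34, interval 0.976 to 1.86). Aqp5, the water channel of salivary and sweat glands, did not share this level. It ranged from 0.0771 to 1.54 FPKM (3 to 58 reads), with P cKO at PD 52 highest, as for Aqp2, and L/Z WT at PD 52 lowest. Aqp6 had 1 read in 1 library.

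The remaining members were near the limit of detection. Aqp3, an aquaglyceroporin of epithelia, ranged from 0.136 to 1.03 FPKM (4 to 38 reads), and no neighbours in the order of its levels differed beyond counting error. Aqp1, the water channel of red blood cells, capillary endothelium and the efferent ducts, ranged from 0.102 to 0.469 FPKM (4 to 21 reads), again with no neighbours that differed beyond counting error. Aqp4, the main water channel of astrocytes, had 3 reads in P cKO at PD 52 (0.0407 FPKM) and 0 reads in the other 7 libraries, where 3 reads would be worth 0.0293 to 0.0404 FPKM. Of the aquaporin genes that were not chosen, Aqp12 reached 0.410 FPKM, the pseudogene Aqp10-ps 0.746, Mip, the lens water channel, 0.0957, and Aqp6 0.0222, so none was tested. Markers of cells that carry Aqp1 were also low: 7 endothelial markers summed to between 3.01 and 6.98 FPKM and 6 markers of the excurrent duct epithelium to between 4.10 and 8.88. The sum of 6 erythroid markers ranged from 1.10 to 59.5 FPKM and was highest in L/Z cKO at PD 24, where Aqp1 stood at 0.258 FPKM.

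The study asked how loss of MFN2 changes the RNA of spermatocytes at each stage and age. On the log2(FPKM + 1) scale, which understates the change of low genes, Aqp2 was higher in cKO by 1.63 (interval 1.28 to 1.86) in P at PD 24, by 1.80 (1.51 to 2.09) in P at PD 52, by 1.44 (1.10 to 1.77) in L/Z at PD 24 and by 1.91 (1.49 to 2.24) in L/Z at PD 52. As ratios of FPKM these were 11.6 (interval 5.37 to 29.9), 4.14 (3.26 to 5.31), 3.69 (2.66 to 5.23) and 8.62 (4.72 to 17.2), in the same order. Aqp7 was lower in cKO, by -1.57 (interval -1.75 to -1.38) in P and -1.20 (-1.32 to -1.08) in L/Z at PD 24, and by -0.46 (-0.58 to -0.35) in P at PD 52. In L/Z at PD 52 it was higher in cKO, by 0.37 (0.29 to 0.44). These are the values on which both genes were chosen.

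Aqp8 was at least 2-fold higher in cKO in P at PD 24 (log2 change 1.34, interval 1.08 to 1.60) and at least 2-fold lower in P at PD 52 (-1.09, interval -1.36 to -0.82). In L/Z it was higher in cKO at both ages, by 0.67 (0.30 to 1.03) and 0.69 (0.26 to 1.09). As ratios of FPKM these L/Z changes were 2.10 (1.38 to 3.25) and 2.28 (1.35 to 3.96). Aqp9 moved beyond counting error in P only, by -0.11 (-0.18 to -0.03) at PD 24 and 0.54 (0.45 to 0.63) at PD 52, and its direction at PD 24 turned to 0.061 when libraries were scaled by total reads. For Aqp11 the changes were small: -0.37 (-0.42 to -0.31) and -0.04 (-0.09 to 0.01) in P, and 0.09 (0.04 to 0.13) and 0.27 (0.23 to 0.31) in L/Z, at PD 24 and PD 52. Aqp5 was higher in cKO in both P pairs, by 0.46 (0.20 to 0.67) and 0.67 (0.33 to 0.96), and its intervals in L/Z reached 0. Aqp3 was higher in cKO at PD 52, by 0.46 (0.10 to 0.69) in P and 0.42 (0.01 to 0.78) in L/Z, and Aqp1 in L/Z at PD 52 alone, by 0.41 (0.13 to 0.58); their other intervals reached 0.

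**Figure D2:**
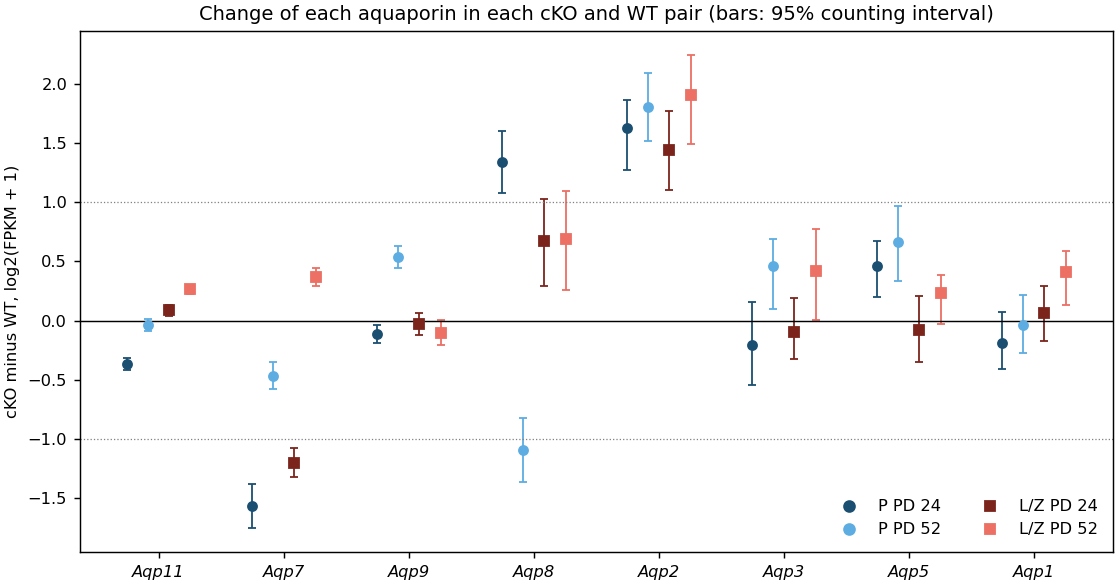
Difference between MFN2 cKO and MFN2 WT on the log2(FPKM + 1) scale (y axis) for 8 aquaporins in the 4 pairs of libraries, with 95% counting intervals as bars and dotted lines at a change of 2-fold. Aqp4 is left out because 7 of its 8 libraries had 0 reads. Aqp2 lies between 1.44 and 1.91 in all 4 pairs, Aqp7 between -1.57 and 0.37, and Aqp8 between -1.09 and 1.34.

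Of the members with FPKM above 1 in a library of the pair, 2 of 6 were at least 2-fold higher in cKO in P at PD 24 (Aqp2 and Aqp8), where 1.79% of all genes were, and 1 of 6 was lower (Aqp7), where 6.29% were. For P at PD 52 the counts were 1 of 6 higher (Aqp2) and 1 of 6 lower (Aqp8), against 5.21% and 5.78% of all genes. For L/Z at PD 24 they were 1 of 5 higher (Aqp2) and 1 of 5 lower (Aqp7), against 3.45% and 7.03%. For L/Z at PD 52 they were 1 of 5 higher (Aqp2) and 0 of 5 lower, against 4.83% and 3.12%. Since the choice of the genes used these contrasts, nothing is read from the counts. The median change of the members tested was -0.16, 0.25, 0.09 and 0.37 in these pairs, and that of all genes tested -0.10, -0.05, 0.08 and 0.02.

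Leydig cell markers moved with Aqp2. Their summed FPKM (6 genes of steroid synthesis and its control, and the peptide hormone gene Insl3) was 19.7 in P WT and 139 in P cKO at PD 24, 36.4 and 206 in L/Z WT and cKO at PD 24, 255 and 641 in P at PD 52, and 27.5 and 99.0 in L/Z at PD 52. In each pair 6 of the 7 were at least 2-fold higher in cKO. The library with the least Leydig marker RNA, P WT at PD 24, had the least Aqp2, and that with the most, P cKO at PD 52, had the most. Among them Cyp17a1, an enzyme of androgen synthesis, was at 1.88 and 22.4 FPKM in P WT and cKO at PD 24 and at 43.5 and 204 at PD 52. The summed FPKM of 6 macrophage markers was also higher in cKO in all 4 pairs. It went from 17.4 to 37.3 and 7.53 to 18.9 in P at PD 24 and PD 52. In L/Z it went from 28.1 to 87.5 and 14.2 to 126. Of the 6 markers 2 and 3 were at least 2-fold higher in cKO in P, and 3 and 6 in L/Z, at these ages. The part of Leydig and macrophage markers in the values of Aqp2 was not tested.

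Spermatid markers moved with Aqp7. The summed FPKM of 12 genes of round and elongating spermatids was 1253 in P WT, 118 in P cKO, 2506 in L/Z WT and 419 in L/Z cKO at PD 24. At PD 52 it was 4759 in P WT, 2196 in P cKO, 10683 in L/Z WT and 19699 in L/Z cKO. In P at PD 24 all 12 were at least 2-fold lower in cKO, in L/Z at PD 24 7 were, and in P at PD 52 4 were, while in L/Z at PD 52, where Aqp7 was higher in cKO, 3 were at least 2-fold higher and 0 lower. Prm1, a protamine that packs sperm DNA, was at 218 FPKM in P WT at PD 24 and at 3.30 in P cKO. The lowest spermatid sum and the lowest Aqp7 level fell in the same library, as did the highest. Their part in the values of Aqp7 was not tested.

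**Figure D3:**
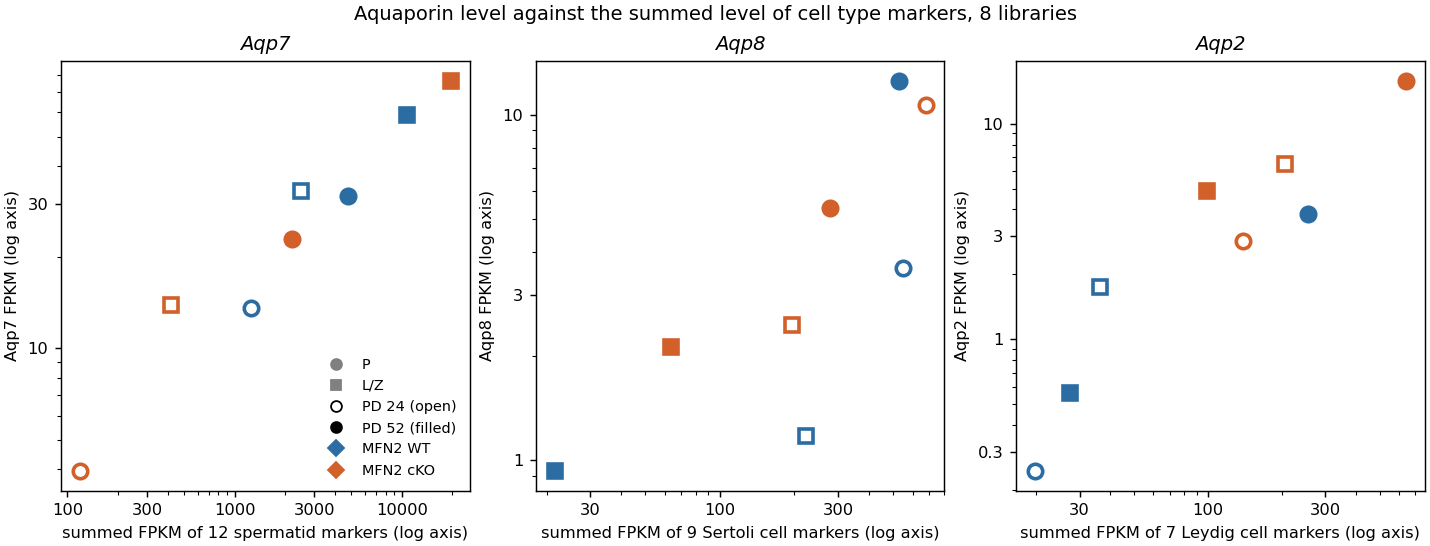
Level of Aqp7, Aqp8 and Aqp2 (y axes, FPKM, log scale) against the summed FPKM of spermatid, Sertoli cell and Leydig cell markers (x axes, log scale) in the 8 libraries. Circles are P and squares L/Z, open symbols PD 24 and filled symbols PD 52, with MFN2 WT in blue and MFN2 cKO in orange. The lowest and the highest library coincide for Aqp7 and for Aqp2; for Aqp8 the lowest coincides and the highest does not.

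Stage and age were compared over all 8 libraries with limma, a linear model whose spread is shared across genes, with genotype as a covariate and 4 libraries on each side. The replicates of a stage or age are thus libraries of the other genotype and age. Adjusted p-values are Benjamini-Hochberg values over 21175 genes, called under 0.05. Among all genes 11.6% were higher and 13.6% lower in P than in L/Z, and 13.5% were higher and 7.05% lower at PD 52 than at PD 24. Without the cKO P pair or without the cKO L/Z pair limma called 0 genes for age, so each age call of an aquaporin, list gene or marker given here was lost there.

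Aqp8 was higher in P than in L/Z, by 1.67 on the log2(FPKM + 1) scale (SE 0.37, limma adjusted p = 0.0185), in 4 of 4 pairs matched for genotype and age. Aqp7 was lower in P by -1.34 (SE 0.30, limma adjusted p = 0.0196) in 4 of 4 such pairs, and Aqp11 by -0.56 (SE 0.16, limma adjusted p = 0.0411), also in 4 of 4. The call for Aqp11 did not hold when any one of the 4 pairs was left out (limma adjusted p = 0.0710 to 0.146), whereas those for Aqp7 and Aqp8 held without each pair. Aqp9 was higher in P in 4 of 4 pairs by 0.54 (SE 0.17) and missed the threshold (limma adjusted p = 0.0516), though it passed without the WT pair of PD 52 (limma adjusted p = 0.0249), with a filter on mean FPKM above 1 (0.0418), under scaling by total reads (0.0478) and in the PD 24 libraries alone (0.0480). Aqp2, Aqp3 and Aqp5 did not pass, with differences of 0.26 (SE 0.50), 0.16 (SE 0.25) and 0.38 (SE 0.22). In the PD 24 libraries alone Aqp3, on 5 to 38 reads, passed at 0.67 (limma adjusted p = 0.0432) and Aqp2 at -1.05 (0.00974).

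With age, Aqp7 rose by 1.66 (SE 0.30, limma adjusted p = 0.0123) and Aqp11 by 0.73 (SE 0.16, limma adjusted p = 0.0216), each in 4 of 4 pairs matched for genotype and stage. The call for Aqp7 was lost without the cKO P pair (limma adjusted p = 0.106) or the cKO L/Z pair (0.0651). That for Aqp11 was lost without the cKO P (0.140), the cKO L/Z (0.0857) or the WT L/Z pair (0.126). Aqp2 differed by 0.73 (SE 0.50) and did not pass (limma adjusted p = 0.308), but passed when a stage by age term was added (limma adjusted p = 0.0246). No call was made for Aqp3, Aqp5, Aqp8 or Aqp9, with differences between -0.16 and 0.12.

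**Figure D4:**
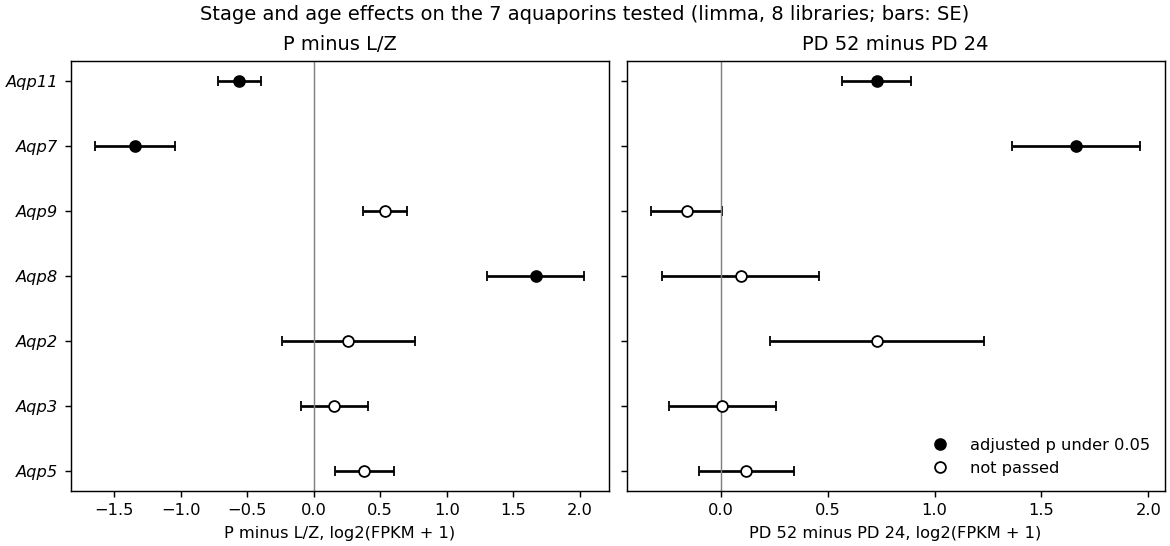
Difference between stages (left, P minus L/Z) and between ages (right, PD 52 minus PD 24) on the log2(FPKM + 1) scale for the 7 aquaporins that passed the FPKM filter, with SE from limma as bars. Filled points had an adjusted p under 0.05: Aqp11, Aqp7 and Aqp8 for stage, and Aqp11 and Aqp7 for age.

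Aqp2 went opposite ways with stage at each age. At PD 24 it was lower in P than in L/Z, by -1.15 in WT and -0.96 in cKO, and at PD 52 it was higher in P, by 1.62 in WT and 1.52 in cKO. The stage difference at PD 52 exceeded that at PD 24 by 2.62 (SE 0.31), which did not pass the test over all genes (limma adjusted p = 0.198). This comparison was added after the data were seen, and in it limma called 0 genes, with 1069 at an unadjusted p under 0.05. The Leydig marker sum likewise lay higher in L/Z at PD 24 and higher in P at PD 52 in both genotypes.

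Beside these differences, Sertoli cell markers moved with Aqp8 by stage but not by age. Their summed FPKM (9 genes) was 551, 679, 531 and 278 in the P libraries (WT and cKO at PD 24, then at PD 52) and 223, 196, 21.5 and 63.7 in the L/Z libraries, and 9 of 9 were higher in P. With age 6 of the 9 were lower at PD 52 and 0 higher, whereas Aqp8 did not pass for age (0.09, SE 0.37). In the P libraries, Aqp8 at PD 24 was 3.61 FPKM in WT and 10.6 in cKO where the Sertoli sums were 551 and 679, and at PD 52 it was 12.5 and 5.36 where they were 531 and 278. Spermatid markers moved with Aqp7 here too: 7 of 12 were lower in P, and 12 of 12 were higher at PD 52. Aqp11 followed the same order of stage and age. The part of these markers in the stage and age differences was not tested. Of 8 spermatogonia markers 3 were lower in P and 0 changed with age (sums 41.6 to 148 FPKM). Of 4 myoid cell markers tested 4 were lower in P and 2 lower at PD 52 (sums 5.11 to 160 FPKM). Of 6 macrophage markers 4 were lower in P and 0 higher, and 0 changed with age (sums 7.53 to 126 FPKM).

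The genes whose levels were most like those of each aquaporin over the 8 libraries were taken from 12430 protein-coding genes with a mean FPKM above 1. Since they were picked as the highest of so many, Pearson's r of log2(FPKM + 1) is a description, and all points share the same 8 libraries. For Aqp7 they were Aif1, Akap3, Actl7a, 1700093K21Rik and 4933402J07Rik (r = 0.997 to 0.998); Akap3 is a scaffold protein of the sperm tail. For Aqp11 they were 4933434E20Rik, Efhb, Tm9sf2, Cfap126 and 4930453N24Rik (r = 0.990 to 0.995), and for Aqp9 Carf, Gdpd4, Btbd8, Cblb and 2610021A01Rik (r = 0.987 to 0.992). Aqp8 was most like Wfdc6b, Wfdc6a, Corin, Trpc5os and Akr1c13 (r = 0.965 to 0.979). Aqp2 was most like Cd36, a fatty acid and lipoprotein receptor (r = 0.988), then Ephx1, Fabp3, Cyp11a1 and Ass1 (r = 0.952 to 0.975). Between members, Aqp7 and Aqp11 had r = 0.926, and each of them was negatively related to Aqp9 (r = -0.67 for both) and to Aqp8 (r = -0.56 and -0.51).

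The nearest genes were the following. Those beside Aqp7, Nfx1 and the small nuclear RNA gene Gm25637, ranged from 2.77 to 8.38 FPKM and from 0 to 3.16 FPKM. Clns1a and Pak1, on each side of Aqp11, ranged from 9.86 to 16.2 and from 3.17 to 6.23 FPKM, and Lcmt1 and Zkscan2, beside Aqp8, from 4.22 to 18.7 and from 0.723 to 2.06. Aqp9 lies between Lipc and Aldh1a2, and Aldh1a2 was at 46.6 to 84.5 FPKM. Before Aqp2 lies the pseudogene Gm5808, at up to 0.145 FPKM. Aqp3 lies between Gm25637 and Nol6 (2.81 to 10.5 FPKM), and Aqp1 between Mindy4 (17.1 to 23.1 FPKM) and Ghrhr, which had no read.

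Glycerol that enters through Aqp7 or Aqp9 is phosphorylated by glycerol kinase, and of the genes of glycerol and triacylglycerol handling 16 of 19 were tested. In P 5 were higher (Gpd1, Agk, Gpam, Dgat1, Mgll) and 5 lower (Gk2, Gykl1, Gpd2, Dgat2, Plin2), against 11.6% and 13.6% of all genes. The list median was 0.03 against -0.04 over all genes. At PD 52 6 were higher (Gk2, Gykl1, Gpd2, Dgat2, Lipe, Plin2) and 1 lower (Gpam), against 13.5% and 7.05% of all genes. The median was 0.11 against 0.00. The list's highest mean levels were those of Gk2 (373 FPKM) and Gykl1 (223 FPKM), glycerol kinase genes of the testis, and Pnpla2 (116 FPKM), a triacylglycerol lipase. Gk2 was lower in P by -0.54 (limma adjusted p = 0.0447) and higher at PD 52 by 0.62 (limma adjusted p = 0.0339). Gykl1 was lower in P by -0.84 (limma adjusted p = 0.0139) and higher at PD 52 by 0.75 (limma adjusted p = 0.0214). Both thus went the way of Aqp7 and Aqp11 with stage and age. So did spermatid markers, of which 7 of 12 were lower in P and 12 of 12 higher at PD 52. The stage call of Gk2 was lost without 3 of the 4 pairs in turn (limma adjusted p up to 0.171) and that of Gykl1 without the WT pair of PD 24 (0.0586) or the cKO pair of PD 52 (0.0561). Their age calls were lost also without the WT L/Z pair (0.133 for Gk2 and 0.0927 for Gykl1), and that of Gk2 without the WT P pair (0.0525). With a pseudocount of 0.1 Gk2 lost its stage call (limma adjusted p = 0.0774) and its age call (0.0622). Its stage call was also lost with a stage by age term (limma adjusted p = 0.0582) and with a block for each matched pair (0.0531). Under scaling by total reads Gk2 lost both calls (limma adjusted p = 0.0616 and 0.107) and Gykl1 its age call (0.0544). The usual glycerol kinase gene Gk was at 0.109 to 0.574 FPKM and was not tested. Pnpla2 passed in neither comparison (0.00 and 0.28). The pairs of genotypes are given in the order P at PD 24, P at PD 52, L/Z at PD 24 and L/Z at PD 52. In them 0 of 14, 1 of 15, 1 of 16 and 1 of 12 genes tested were at least 2-fold higher in cKO. The shares of all genes were 1.79%, 5.21%, 3.45% and 4.83%. At least 2-fold lower were 2, 0, 2 and 0 genes of the list, against 6.29%, 5.78%, 7.03% and 3.12% of all genes.

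Of the genes of cell volume and ion transport 14 of 18 were tested. In P 3 were lower (Slc12a4, Lrrc8b, Slc6a6), against 13.6% of all genes. At PD 52 2 were higher (Lrrc8b, Slc6a6) and 2 lower (Slc12a4, Nfat5), against 13.5% and 7.05% of all genes. The list's medians were 0.00 for stage and -0.27 for age. Its highest mean levels were those of Lrrc8b (52.0 FPKM), a subunit of the volume-regulated anion channel, Slc6a6 (14.9 FPKM), the taurine transporter, and Nfat5 (7.33 FPKM), a transcription factor of the response to high osmolarity. Lrrc8b differed by -1.21 with stage (limma adjusted p = 0.0378) and 1.81 with age (limma adjusted p = 0.0133), the signs of Aqp7. Its stage call held without each pair but was lost with a pseudocount of 0.1 (limma adjusted p = 0.0663) and with no filter (0.104). That call was also lost in the PD 52 libraries alone (limma adjusted p = 0.0694). Its age call was lost also without the WT L/Z pair (limma adjusted p = 0.0856). Avpr2, the vasopressin receptor that controls Aqp2 in the kidney, was at 0 FPKM in 7 libraries and at 0.0231 in L/Z WT at PD 52. In P and L/Z at PD 24, 1 of 13 and 1 of 12 genes tested were at least 2-fold lower in cKO, against 6.29% and 7.03% of all genes. None of the 12 tested in each pair of PD 52 was 2-fold changed.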

How the data were processed

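RNA was measured in 8 libraries, each of 1 stage (P or L/Z), genotype (MFN2 WT or cKO) and age (PD 24 or PD 52). The deposited FPKM values per gene were made by the authors with Novomagic from paired-end reads, and no differential test of theirs was used. The submitters' processing notes name CASAVA 1.4, Bowtie 0.12.2 and the builds mm8 and mm9, but 98.3% of 54409 gene identifiers have the coordinates of GENCODE M21 on GRCm38. FPKM times gene length fell on whole multiples of 1 step in each library for 100% of values (tolerance 0.001), which gave the reads, 14340665 to 20379950 per library.

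The aquaporins and the gene lists were chosen with earlier results of these data known. Changes between genotypes are differences of log2(FPKM + 1) with exact binomial 95% intervals of the reads (SciPy 1.17.1), and levels have exact Poisson intervals. PCR duplicates were not marked, so intervals and the floor of 3 reads cover counting error only. Stage and age were tested with limma 3.58.1 (R 4.3.3) over 8 libraries with genotype, stage and age as terms, on genes with FPKM above 1 in at least 1 library, Benjamini-Hochberg adjusted. With 1 library per group, p-values measure the spread between libraries after these terms, which may be technical. The fit was checked on a table with known differences. Alternatives were a pseudocount of 0.1, no filter, a mean FPKM above 1, a further median-of-ratios scaling, a stage by age term, and each pair of libraries left out. Scaling by total reads, fits within 1 age or stage, a block for each matched pair of libraries and the test of stage by age were added after seeing the data.

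Genes named are the 9 aquaporins, the counts of each list and, of the pathway lists, the 3 genes of highest mean FPKM, the 5 genes most like each aquaporin, the nearest genes, and Mfn2. Cyp17a1, Insl3, Prm1, Piwil1, Pgk2, Dmc1, Prdm9, Gk and Avpr2 were named after their values were seen. Promoters are RefSeq's for GRCm38.p6. The genes of cell volume and ion transport that were higher in P are not reported here. The authors' RT-qPCR was not analysed here.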

Additional observations from a re-analysis of the deposited data

Results flagged for a closer look

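The difference between MFN2 cKO and MFN2 WT went one way in one set of pairs and the other way in the rest for 3 aquaporins. For Aqp11 both P pairs were lower and both L/Z pairs higher in cKO, and the mean change in P was below that in L/Z by a difference of -0.38 on the log2(FPKM + 1) scale. For Aqp1 the P pairs were likewise lower and the L/Z pairs higher, a difference of -0.35 that rests on 4 to 21 reads per library. For Aqp3 both pairs of PD 52 were higher and both of PD 24 lower in cKO, a difference of 0.59 on 4 to 38 reads. These differences were flagged by their signs and were not tested, and each pair has 1 library a side. For Aqp11 the change in P at PD 52, and for Aqp1 all but that in L/Z at PD 52, lay within counting error, as did both changes of Aqp3 at PD 24. Groups of 1 library allow no search for a library that stands apart.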

How the results depend on the processing

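The number of genes called for stage was 5334 and lay between 1771 and 5626 with 1 pair of libraries left out (1771 without the WT pair of PD 24, 2534 without the cKO pair of PD 52), and it was 0 in the PD 52 libraries alone (limma, 5452 at an unadjusted p under 0.05). For age it was 4348, between 0 and 3901 with 1 pair left out (0 without the cKO P or the cKO L/Z pair, 723 without the WT L/Z pair), 20 in the P libraries alone and 0 in the L/Z libraries alone. Scaling by total reads changed the calls for age from 2855 higher and 1493 lower to 2195 and 2405, with the median of all genes moving to -0.15, and Aqp7 and Aqp11 were still called. With a pseudocount of 0.1 there were 2 aquaporins at least 2-fold higher in cKO in P at PD 52, L/Z at PD 24 and L/Z at PD 52 in place of 1. The stage difference of Aqp2 turned to -1.05 in the PD 24 libraries alone (limma adjusted p = 0.00974), and Aqp9 in P at PD 24 changed by 0.061 under scaling by total reads. The stage calls of Aqp7 and Aqp8 were lost with no filter (limma adjusted p = 0.0586 and 0.0606) and in the PD 52 libraries alone, and that of Aqp11 with a pseudocount of 0.1 (0.0701) and with a stage by age term (0.0509). The age calls of Aqp7 and Aqp11 were not made within P or L/Z alone. The cause was not tested. Further median-of-ratios scaling changed no call of an aquaporin, but its factor was the same, 1.02, in all 8 libraries. It could therefore change little and says nothing on how the results depend on scaling. With each matched pair of libraries as a block (added after seeing the data, 3 residual degrees of freedom), 5917 genes were called for stage and 3405 for age, and no call of an aquaporin changed (limma adjusted p for Aqp11 0.0434 and 0.0307). The difference between cKO and WT was not tested, with or without pairing, because it chose the genes. The fit has 4 residual degrees of freedom, and the levels of Aqp1, Aqp3, Aqp4 and Aqp5 are limited by depth.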
